A study of Mus musculus with 8 samples.

Results

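The cytosolic ribosomal protein genes encode the proteins of the ribosomes that translate nuclear mRNAs in the cytoplasm. They were taken by symbol from the deposited gene expression table: names of the form Rpl or Rps followed by a number and at most one letter a, x, l or y, together with *Rplp0*, *Rplp1*, *Rplp2* and *Rpsa*. Pseudogene names and the ribosomal S6 kinases were left out. This gave 82 genes of the 26894 genes with a symbol in the table, measured by 181 probes, and each gene was represented by the probe with the highest mean over the 8 arrays. All 82 symbols were found in RefSeq, 81 as protein coding genes and 1, *Rps4l*, as a transcribed pseudogene. Of the 82 genes, 79 were well above background on at least 4 arrays and were tested.

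RNA came from islets of 4 βUCP2Tg samples and 4 wild-type (WT) samples, all from male mice. βUCP2Tg mice carry a mouse *Ucp2* cDNA under the rat *Ins2* promoter, which is active in β-cells, and had been backcrossed to C57BL6/J. The WT mice were littermates, and the methods give an age of 8 to 12 weeks for islet isolation. All islets were cultured for 8 h in medium with 200 mg/dL glucose, and each RNA was hybridised to one array of a single one-colour Agilent slide. The comparison asks which islet transcripts differ when *Ucp2* is overexpressed in β-cells. Whether a sample held islets of 1 mouse or of several was not given in the sources used here, so the p-values measure the spread between samples. The arrays of each genotype lay in their own row of the slide, so that genotype and slide row cannot be told apart.

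A ribosome has a small subunit, which reads the mRNA, and a large subunit, which joins amino acids and carries a stalk that recruits elongation factors. The ribosomal protein mRNAs are among the most abundant in a cell. Most of them start with a cytosine followed by a run of pyrimidines, the 5′ terminal oligopyrimidine (TOP) motif, through which mTOR and LARP1 control their translation and stability. In β-cells the ribosomes on the endoplasmic reticulum make proinsulin, the main protein product of the cell.

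The start regions are shown to describe the motif, and whether it bears on differences between arrays was not tested. RefSeq windows around the annotated transcription start were available for 61 of the 82 genes (build GRCm38.p6). Each line gives 15 bases before and 15 bases from the start, 5′ to 3′, with the letters CTTTC or CTTCC in capitals where they occur. The positions are chr4:86857353-86857382 on the minus strand for *Rps6*, chr7:141447636-141447665 on the plus strand for *Rplp2*, chr3:90213634-90213663 on the minus strand for *Rps27*, chr17:27635230-27635259 on the minus strand for *Rps10* and chr5:115559452-115559481 on the plus strand for *Rplp0*.
Rps6: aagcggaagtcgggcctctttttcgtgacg
Rplp2: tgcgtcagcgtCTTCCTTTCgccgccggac
Rps27: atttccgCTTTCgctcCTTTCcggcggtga
Rps10: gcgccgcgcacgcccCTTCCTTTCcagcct
Rplp0: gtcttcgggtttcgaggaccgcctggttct
Within 30 bases on either side of the start, CTTTC or CTTCC stood on the sense strand in 37 of the 61 genes (60.7%), and in 21.8% of all 27025 genes of the same table. The same letters on the other strand were found in 32.8% of the 61 genes and in 23.1% of all genes. The 2 sets of letters can overlap, as in *Rplp2* and *Rps10*, and they were chosen for description after the sequences were seen. *Rps6* has a pyrimidine run at its start that neither set of letters covers, and *Rplp0* has no match in its window.

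No ribosomal protein gene of the 79 tested was called different between βUCP2Tg and WT islets. Values are log2 of the background-subtracted spot signal minus the 75th percentile of the array, so that 0 is the level of that percentile. A gene was called when limma gave a Benjamini-Hochberg adjusted p under 0.05 and the fold change was over 1.5. Among all 17860 genes tested, calls in limma made up 0.274% for higher levels in βUCP2Tg islets and 0.207% for lower levels, shares at which 79 genes need hold no call. The count at an unadjusted p under 0.05 was also 0 of 79 in limma, while 12.9% of all genes were higher and 11.6% were lower at that limit. Among 1771 other genes as bright as these, 4.91% were higher and 16.1% were lower at an unadjusted p under 0.05. The smallest unadjusted p was 0.0740 and the smallest adjusted p was 0.239, both for *Rps27a*. By the methods' t-test 0 members were called, and 3 (*Rpl3*, *Rpl27* and *Rps27a*) were lower at an unadjusted p under 0.05.

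The differences were small, and the intervals limit how large they can have been. The log2 differences (βUCP2Tg minus WT) ran from -0.24 to 0.22, with quartiles at -0.08 and 0.02 and standard errors of 0.08 to 0.18. Over the 79 genes, all 95% intervals lay within 1.5-fold in either direction, with bounds from 0.670-fold to 1.40-fold. By comparison, 9398 of the 17860 genes tested, and 1299 of the 1771 other genes as bright, had intervals within 1.5-fold. The median difference was -0.05, with 55 genes lower and 24 higher, beside a median of 0.03 over all genes tested. The 1771 other genes as bright as the members had a median of -0.04, with 1053 lower, close to that of the members. Scaling arrays to their median adds the same shift to each gene measured on every array, and gave 0.02 for the members and 0.09 for all genes. After quantile normalization the medians were 0.07 for the members and 0.07 for all genes. A p above the limit does not show that levels were equal, and for 79 genes the intervals above are what was measured. The forest of differences shows that no subunit stood apart: the median was -0.05 for 44 large-subunit genes, -0.05 for the 3 stalk genes and -0.04 for 32 small-subunit genes.

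**Figure D1:**
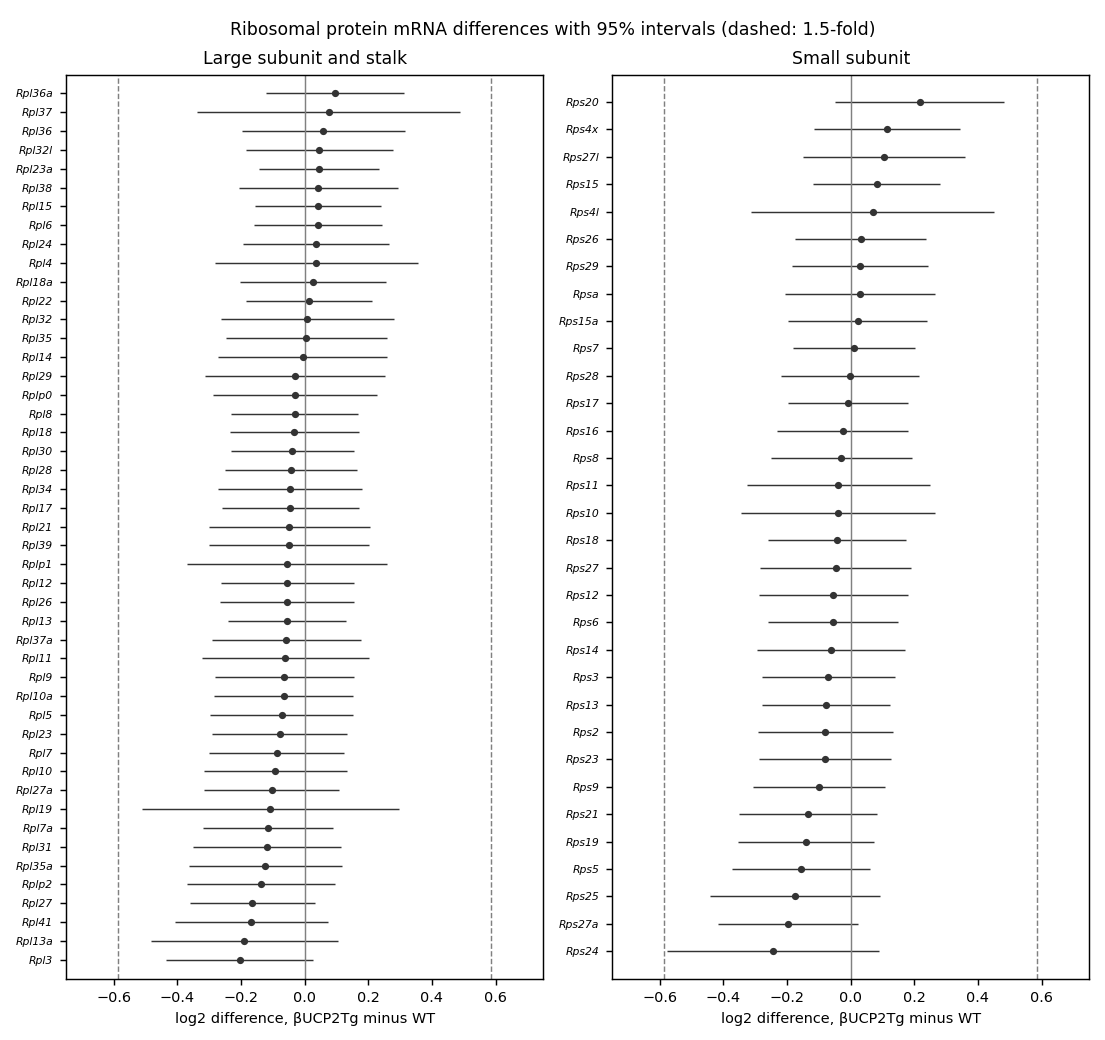
The log2 difference (βUCP2Tg minus WT, x axis) with its 95% interval is plotted for each of the 79 ribosomal protein genes tested, the large subunit with the stalk on the left and the small subunit on the right, ordered by the difference. Every interval spans 0 and lies inside the dashed lines at 1.5-fold.

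Although the groups did not separate, the genes moved together between arrays. Each gene was set against its own mean over the arrays. On βUCP2Tg arrays 1 and 2, 65 and 71 of 79 genes were above their own mean, and on βUCP2Tg arrays 3 and 4, only 4 and 5 were. On WT arrays 1, 2 and 3, 17, 72 and 37 of 79 genes were above, and on WT array 4, 68 of the 78 genes measured. Each genotype thus had arrays with most of these genes high and arrays with most of them low. The median deviation was 0.06, 0.06, -0.09 and -0.10 on the βUCP2Tg arrays and -0.08, 0.09, -0.01 and 0.11 on the WT arrays, on the log2 scale. The 75th percentile subtracted from each array was 8.996, 9.046, 9.161 and 9.144 in βUCP2Tg and 8.894, 8.795, 8.863 and 8.781 in WT. βUCP2Tg arrays 3 and 4, with the low medians, had the higher percentiles of their group. In WT the median was lower where the percentile was higher. βUCP2Tg arrays 1 and 2 had higher percentiles than any WT array and medians of 0.06. Whether the scaling or the brightness of these genes made them move together was not tested. Averaged over the genes, the deviation was -0.02 ± 0.10 (SD, n = 4) in βUCP2Tg and 0.02 ± 0.08 (SD, n = 4) in WT, a difference smaller than either SD.

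The shared movement was of small size. The median deviation over all genes tested lay between -0.05 and 0.06 on the same arrays. The median within-group SD of a ribosomal protein gene was 0.11 on the log2 scale, against 0.15 for other genes as bright and 0.21 for all genes tested. No spot was saturated, and the highest linear signal of a ribosomal protein probe was 118675 to 139662 per array, against a saturation value of 780588.

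**Figure D2:**
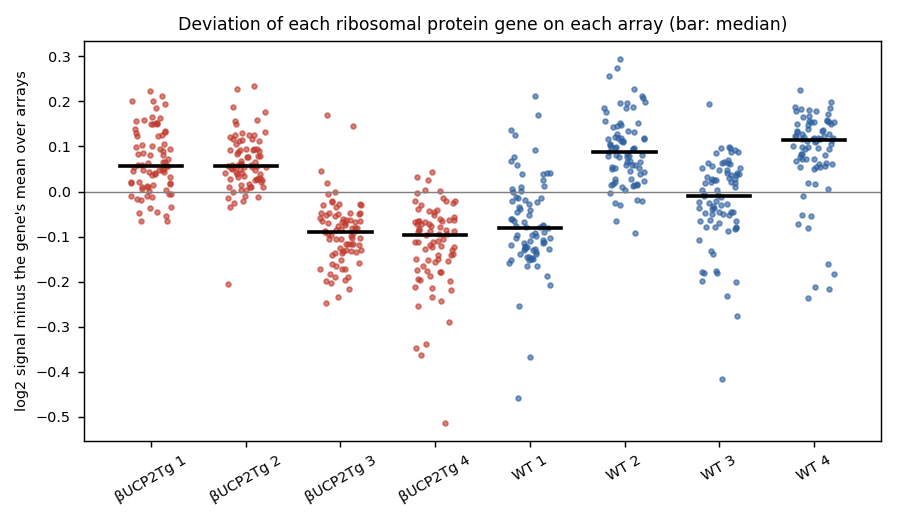
Each point is 1 ribosomal protein gene on 1 array, as its log2 signal minus its own mean over the arrays (y axis), with βUCP2Tg arrays in red and WT arrays in blue and a bar at the median. βUCP2Tg arrays 1 and 2 and WT arrays 2 and 4 have medians above 0.05, and βUCP2Tg arrays 3 and 4 and WT array 1 have medians below -0.07.

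The labels and the cell content of the arrays were checked next to these values. *Ucp2* was 7.38 ± 0.31 in βUCP2Tg and 1.15 ± 0.23 in WT islets (SD, n = 4), a log2 difference of 6.24 (probe A_51_P297105, limma, adjusted p = 9.32e-06). The second *Ucp2* probe tested, A_52_P90265, differed by 0.44 with its groups apart (adjusted p = 0.0987) and was not called. All 10 β-cell markers listed, among them *Ins1* and *Ins2*, were well above background on all 8 arrays. Acinar markers differed widely between arrays: their mean log2 level ran from -1.55 to 2.76 in βUCP2Tg and from -1.02 to 3.32 in WT. All 27 acinar markers were lower on average in βUCP2Tg (median -1.75), and 0 of 27 had an unadjusted p under 0.05 (limma). The acinar mean was highest on βUCP2Tg array 4 and WT arrays 1, 2 and 3, of which only WT array 2 had most ribosomal protein genes above their means. Of the leukocyte markers, *Cd14* was called lower (log2 difference -2.10, limma, adjusted p = 0.0480). At an unadjusted p under 0.05, 1 leukocyte marker was higher and 3 were lower of 11, 0 and 2 of 10 for β-cells, 1 and 0 of 5 for the other islet hormones, 1 and 3 of 8 for ducts, 4 and 1 of 9 for endothelium, and 1 and 0 of 7 for stellate cells, where 12.9% of all genes were higher and 11.6% lower. The part of acinar or leukocyte RNA in the ribosomal protein values was not tested, and in whole islets fewer cells of a type and less RNA per cell cannot be told apart.

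The large-subunit gene with the lowest difference was *Rpl3*, whose protein lies near the centre that joins amino acids. Its log2 signal was 5.74, 5.76, 5.66 and 5.55 on the βUCP2Tg arrays and 5.71, 6.01, 5.87 and 5.95 on the WT arrays. WT array 1 lay among the βUCP2Tg arrays and the groups overlapped. The log2 difference was -0.20 ± 0.10 (SE), with limma's unadjusted p at 0.0749 and adjusted p at 0.241.

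*Rpl13a*, which outside the ribosome takes part in silencing inflammatory mRNAs, had 5.60, 5.57, 5.32 and 5.28 in βUCP2Tg and 5.66, 5.74, 5.36 and 5.76 in WT. WT array 3 fell to the level of the lower βUCP2Tg arrays, and the log2 difference was -0.19 ± 0.13 (SE). *Rpl41*, which encodes one of the shortest proteins known, had 8.02, 7.94, 7.69 and 7.71 in βUCP2Tg and 7.96, 8.04, 7.95 and 8.08 in WT. βUCP2Tg arrays 3 and 4 were its low values, as in most of the genes, and the log2 difference was -0.17 ± 0.10 (SE).

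At the other end, *Rpl36a* had the highest difference among large-subunit genes, at 0.10 ± 0.09 (SE) on the log2 scale. *Rpl37* followed at 0.08 ± 0.18 (SE). Its only probe in the table was dim, between -5.36 and -4.61, and had the widest standard error of the 79 genes.

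The free large-subunit proteins *Rpl5* and *Rpl11* bind Mdm2, the ubiquitin ligase of the tumour suppressor Trp53, when ribosome assembly is disturbed. *Rpl5* had 5.65, 5.65, 5.42 and 5.57 in βUCP2Tg and 5.51, 5.63, 5.67 and 5.78 in WT, a log2 difference of -0.07 ± 0.10 (SE). *Rpl11* had 7.00, 7.00, 6.71 and 6.66 in βUCP2Tg and 6.85, 6.98, 6.79 and 6.99 in WT, a log2 difference of -0.06 ± 0.11 (SE). For both genes the groups overlapped.

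The 3 stalk proteins bind the GTPases that drive elongation. *Rplp0*, often used as a reference gene in qPCR, had 6.31, 6.27, 6.08 and 5.98 in βUCP2Tg and 6.06, 6.33, 6.10 and 6.27 in WT. Both groups held high and low arrays, and the log2 difference was -0.03 ± 0.11 (SE), with a 95% interval from -0.29 to 0.23. The log2 differences were -0.05 ± 0.14 (SE) for *Rplp1* and -0.14 ± 0.10 (SE) for *Rplp2*.

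In the small subunit, *Rps27a* was the one member whose groups did not overlap, of the 78 measured on all arrays. It encodes ubiquitin fused to a ribosomal protein. The values were 7.34, 7.31, 7.07 and 7.16 in βUCP2Tg and 7.35, 7.52, 7.36 and 7.45 in WT. All βUCP2Tg arrays lay below all WT arrays, though βUCP2Tg array 1 and WT array 1 were within 0.01 of each other. The log2 difference was -0.20 ± 0.10 (SE), or 0.872-fold with a 95% interval from 0.749 to 1.02. Across all genes with values on every array, 6.73% had groups apart in this direction and 6.37% in the other, so 1 of 78 is below that background. Its probe read as follows and shared no stretch of 30 bases with a probe of another gene.
Rps27a: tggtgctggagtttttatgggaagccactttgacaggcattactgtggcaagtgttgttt

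*Rps24* had the lowest difference of all members, and rested on 7 arrays because its spots on WT array 4 were marked as outliers by the scanner software. It had 7.13, 6.97, 6.78 and 6.61 in βUCP2Tg and 7.14, 7.19 and 7.01 in WT arrays 1 to 3. The βUCP2Tg arrays spread over a wider range than the WT arrays, and the groups overlapped. The log2 difference was -0.24 ± 0.14 (SE, 4 and 3 arrays). With the outlier spots kept, *Rpl3* was the lowest member instead.

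*Rps20*, of the head of the small subunit, had the highest difference. It had 7.39, 7.40, 7.18 and 7.12 in βUCP2Tg and 7.00, 7.29, 6.98 and 6.95 in WT. WT array 2 stood apart from the other WT arrays and fell among the βUCP2Tg arrays. The log2 difference was 0.22 ± 0.12 (SE), with limma's unadjusted p at 0.0970 and adjusted p at 0.276.

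**Figure D3:**
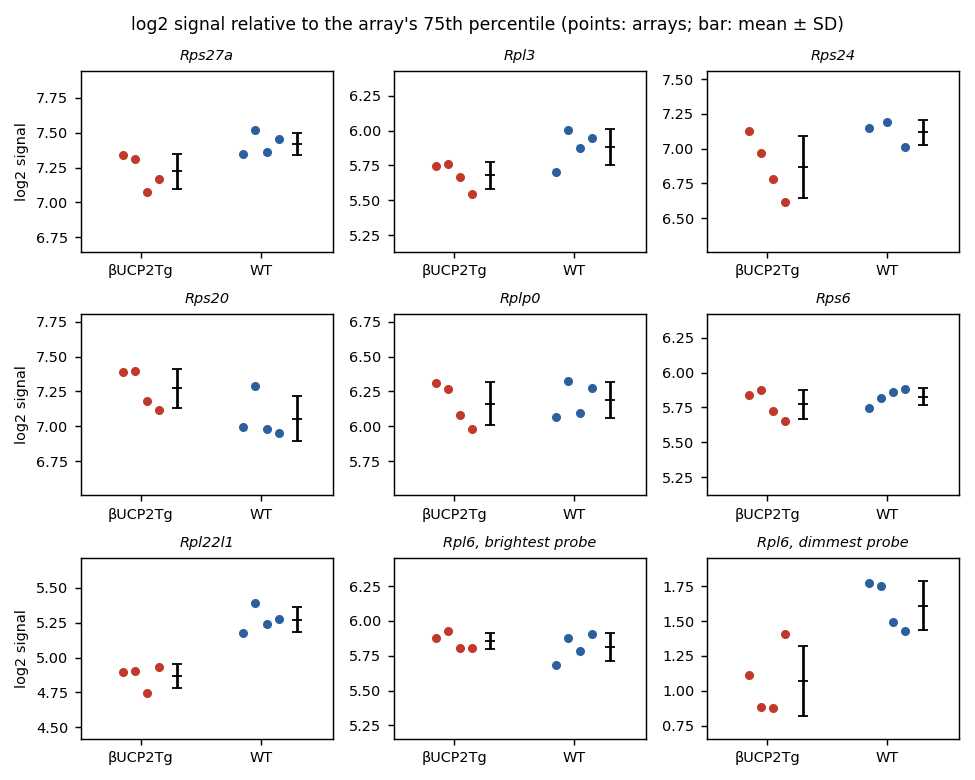
The log2 signal relative to the 75th percentile of the array (y axis, each panel spanning the same range) is shown for 6 ribosomal protein genes, for *Rpl22l1* and for the brightest and the dimmest probe of *Rpl6*, with 1 point per array and the mean ± SD beside it. In the panels of *Rps27a*, *Rpl22l1* and the dimmest *Rpl6* probe the groups do not overlap, and in the others they do.

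*Rps6*, whose protein is phosphorylated by the S6 kinases downstream of mTOR, had 5.84, 5.88, 5.72 and 5.65 in βUCP2Tg and 5.75, 5.82, 5.86 and 5.88 in WT. The log2 difference was -0.05 ± 0.09 (SE), and the groups overlapped. *Rps19*, the gene most often mutated in Diamond-Blackfan anaemia, had 6.64, 6.64, 6.46 and 6.51 in βUCP2Tg and 6.56, 6.74, 6.70 and 6.81 in WT. Its log2 difference was -0.14 ± 0.09 (SE), and WT array 1 lay among the βUCP2Tg arrays. *Rps15*, among the 6 highest differences, had 5.99, 6.04, 5.88 and 5.90 in βUCP2Tg and 5.76, 5.89, 5.86 and 5.96 in WT, a log2 difference of 0.08 ± 0.09 (SE). *Rpsa*, also known as the laminin receptor, differed by 0.03 ± 0.10 (SE) and *Rps25*, needed for internal initiation on some viral RNAs, by -0.17 ± 0.12 (SE).

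Several ribosomal proteins have a second gene copy with restricted expression. *Rpl3l*, a copy of muscle and heart, and *Rpl10l* and *Rpl39l*, copies of the testis, were not well above background on any of the 8 arrays and were not tested. Their partner copies were measured on every array. *Rpl10*, on the X chromosome, differed by -0.09 ± 0.10 (SE) on the log2 scale and *Rpl39*, whose protein lines the exit tunnel, by -0.05 ± 0.11 (SE). *Rps27l*, a copy induced by Trp53, differed by 0.10 ± 0.11 (SE) and its partner *Rps27* by -0.05 ± 0.10 (SE). *Rps4x* differed by 0.11 ± 0.10 (SE) and *Rps4l* by 0.07 ± 0.17 (SE).

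Many members had more than 1 probe, and the probes of a gene did not always give the same answer. Besides the representative probes there were 96 tested probes of the members, of which 0 had an adjusted p under 0.05 (limma). At an unadjusted p under 0.05, 1 of the 96 was higher (*Rpl39*, probe A_65_P03435, 0.25 on the log2 scale) and 7 were lower. Over all 35363 probes tested, 9.99% were higher and 15.2% lower at that limit.

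Most of the probes that were lower carried an Ensembl accession. That they gave less signal than the representative probe follows from the choice of the brightest probe of a gene. Of 71 other probes with a RefSeq accession, 0 were lower at an unadjusted p under 0.05 and the median log2 difference was -0.03. Of 18 with an Ensembl accession, 6 were lower, and the median was -0.31, or -0.12 with 6 lower after normexp background correction. The split by accession was made after the values were seen. It was not particular to ribosomal proteins: of 3123 probes of other genes with an Ensembl accession that were not the brightest of their gene, 30.8% were lower and 3.17% higher at that limit, with a median of -0.28.

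*Rpl6*, of the large subunit, had the widest spread between its probes. Its brightest probe had 5.88, 5.93, 5.81 and 5.81 in βUCP2Tg and 5.68, 5.88, 5.78 and 5.91 in WT. The groups overlapped, with a log2 difference of 0.04 ± 0.09 (SE). Its dimmest probe, with an Ensembl accession, had 1.11, 0.89, 0.88 and 1.41 in βUCP2Tg and 1.77, 1.75, 1.49 and 1.43 in WT. There all βUCP2Tg arrays lay below all WT arrays, with a log2 difference of -0.54 ± 0.15 (SE, limma, unadjusted p = 0.00630, adjusted p = 0.0993). The other probes of *Rpl6* differed by 0.02 and 0.01. The 2 sequences, from the array's probe table, are shown because they gave different answers for a gene of one name.
Rpl6 brightest probe: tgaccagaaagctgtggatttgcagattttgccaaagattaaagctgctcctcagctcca
Rpl6 dimmest probe: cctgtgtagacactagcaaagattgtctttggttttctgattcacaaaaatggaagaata

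*Rpl41* gave the same picture. Its probe with an Ensembl accession had 1.29, 1.12, 0.83 and 1.44 in βUCP2Tg and 1.72, 1.77, 1.58 and 1.54 in WT, a log2 difference of -0.48 ± 0.14 (SE, limma, adjusted p = 0.106), where the brightest probe gave -0.17.
Rpl41 brightest probe: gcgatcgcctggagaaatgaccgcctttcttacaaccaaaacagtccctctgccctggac
Rpl41 dimmest probe: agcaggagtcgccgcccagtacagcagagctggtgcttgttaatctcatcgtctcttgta
The other probes that were lower belonged to *Rps9* (-0.43 and -0.45), *Rpl12* (-0.48), *Rpl7a* (-0.34) and *Rps13* (-0.58, with no RefSeq or Ensembl accession), while the brightest probes of these 4 genes gave -0.10, -0.05, -0.11 and -0.08 on the log2 scale. Which transcripts these probes bind was not tested. Of the 181 probes of the members, 2 shared a stretch of 30 bases or more with a probe of another gene, and 1 of these was a representative probe (*Rpl37a*, with *Cnbd2*).

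**Figure D4:**
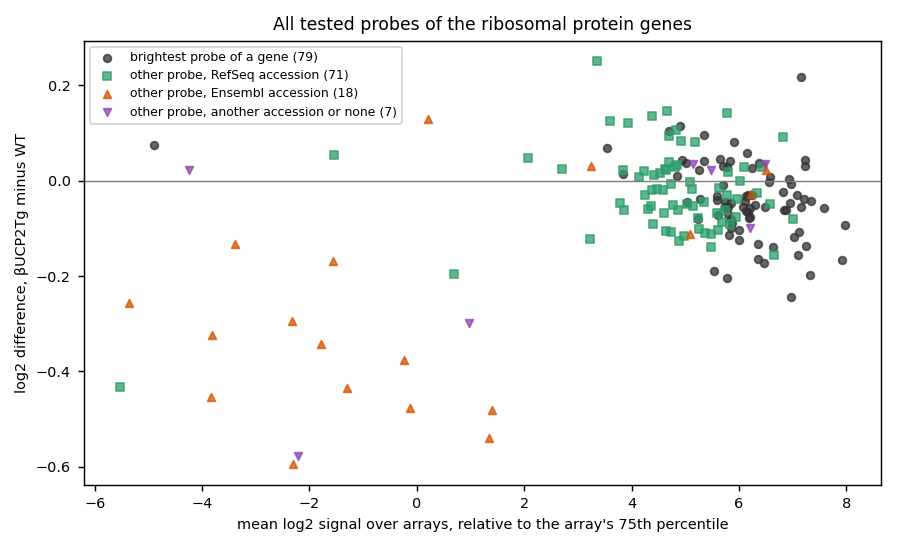
All 175 tested probes of the ribosomal protein genes are plotted by their mean log2 signal (x axis) and their log2 difference, βUCP2Tg minus WT (y axis), with symbols for the brightest probe of a gene and for the accession of its other probes. Bright probes lie close to 0, and the probes below -0.4 have a mean signal under 2.

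Genes around the ribosomal proteins were read from lists, and in all 7 lists 0 genes were called in limma. Of 6 genes for ribosomal protein relatives outside the rule, 1 was lower at an unadjusted p under 0.05, where 11.6% of all genes were lower. This was *Rpl22l1*, the copy of *Rpl22*, with 4.89, 4.90, 4.74 and 4.93 in βUCP2Tg and 5.18, 5.39, 5.24 and 5.27 in WT. Its groups did not overlap, as in 6.73% of all genes in this direction. The log2 difference was -0.40 ± 0.09 (SE, limma, unadjusted p = 0.00175, adjusted p = 0.0790). *Rpl22* itself differed by 0.01 on the log2 scale.

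The elongation factors and other TOP mRNAs gave 0 of 21 at an unadjusted p under 0.05 and a median log2 difference of -0.04. After quantile normalization the median was 0.08 with 3 genes higher, beside a median of 0.07 over all genes and 12.5% of all probes higher. After normexp correction it was 0.09 with 4 higher, beside 0.05 and 13.3%. *Eef1a1*, which brings aminoacyl-tRNA to the ribosome, differed by -0.04 ± 0.10 (SE) and *Eef2*, which moves the ribosome along, by 0.08 ± 0.09 (SE). *Pabpc1*, the poly(A) binding protein, had 4.80, 5.06, 4.94 and 5.00 in βUCP2Tg and 4.78, 5.93, 5.66 and 5.34 in WT. WT array 1 stood below all βUCP2Tg arrays while the other WT arrays were above them, and the log2 difference was -0.48 ± 0.23 (SE, limma, adjusted p = 0.229). Without WT array 1 *Pabpc1* was called lower (-0.69, adjusted p = 0.0284), in a setting where 3759 of 34786 probes were called, against 145 of 35363 with all arrays.

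Of 34 translation initiation factors, 6 were lower and 0 higher at an unadjusted p under 0.05, with a median of -0.09. Beside them, 11.6% of all genes and 16.1% of the bright genes were lower. The bright genes were matched to the ribosomal protein genes and not to this list, whose mean log2 level per array was 3.21 to 3.39. The lowest p-values were those of *Eif5* (-0.29), *Eif4a1* (-0.29) and *Eif3a* (-0.26). Median scaling shifts all genes measured on every array alike, and left 11.9% of all probes lower in place of 15.2%. Under it 0 of 34 were lower. Without βUCP2Tg array 3, 3 were lower, beside 10.6% of all probes. After quantile normalization, and likewise after normexp correction, 3 were higher and 2 lower. In these 2 settings 12.5% and 13.3% of all probes were higher, and 12.9% and 12.7% were lower.

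The list for ribosome assembly and rRNA processing held the most genes below an unadjusted p of 0.05, with 22 of 87 lower and 0 higher and a median of -0.07, where 11.6% of all genes and 16.1% of the bright genes were lower. The lowest p-values were those of *Gnl3* (nucleostemin, -0.40 ± 0.08 SE), *Zfp622* (a factor of late large-subunit maturation, -0.44 ± 0.09 SE) and *Gnl2* (-0.44 ± 0.10 SE), with adjusted p-values of 0.0670 to 0.0817 in limma. The count of lower genes was 11 under median scaling, 18 after quantile normalization (1 higher), 23 after normexp correction (5 higher), 13 without βUCP2Tg array 2 and 21 without WT array 1 (3 higher). In that order 11.9%, 12.9%, 12.7%, 9.87% and 18.4% of all probes were lower. Higher were 12.5% of all probes after quantile normalization, 13.3% after normexp correction and 16.8% without WT array 1. No test of the list against other genes was made.

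**Figure D5:**
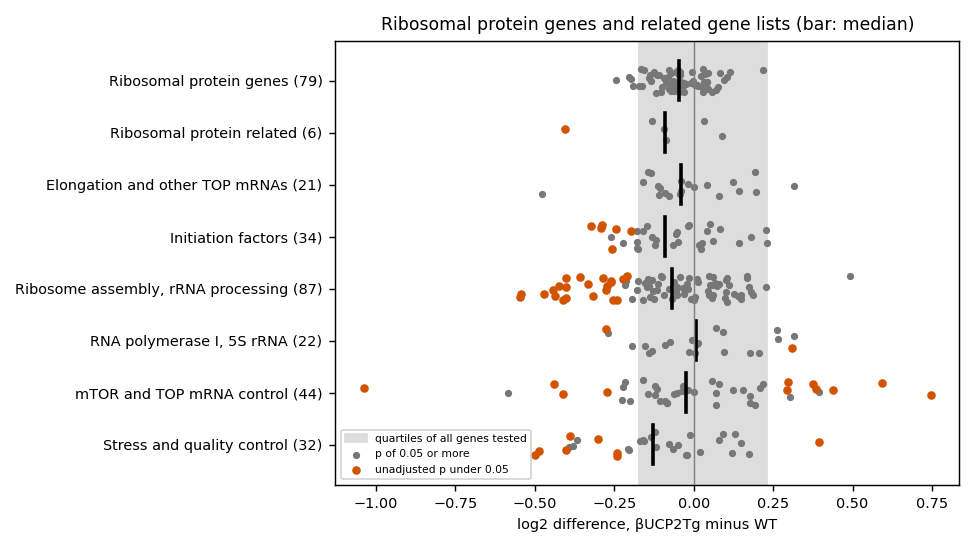
Each point is the log2 difference (βUCP2Tg minus WT, x axis) of 1 gene of the ribosomal protein genes or of a related list (rows, number of genes tested in parentheses), orange where limma's unadjusted p was under 0.05, with a bar at the median and a grey band between the quartiles of all genes tested. The 79 ribosomal protein genes hold no orange point, and the ribosome assembly list holds 22, all below 0.

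RNA polymerase I and its partners, which make rRNA, had 1 of 22 genes higher (*Polr1b*, 0.31) and 1 lower (*Ttf1*, -0.28) at an unadjusted p under 0.05, with a median of 0.01. Over all genes, 12.9% were higher and 11.6% lower at that limit. Without WT array 1 the counts of this list were 5 and 2, where 16.8% of all probes were higher and 18.4% lower. Both counts were 0 without βUCP2Tg array 2 or 3 or WT array 3. There 6.23% to 6.78% of all probes were higher and 9.87% to 10.6% lower. In the list of mTOR and TOP mRNA control, 7 of 44 genes were higher and 4 lower at that limit, beside 12.9% and 11.6% of all genes. *Ddit4*, an inhibitor of mTORC1 induced by stress, had the lowest p, with a log2 difference of -1.04 ± 0.24 (SE, limma, unadjusted p = 0.00212, adjusted p = 0.0823). It was called without βUCP2Tg array 4 (-1.18, adjusted p = 0.0411) and without WT array 1 (-1.23, adjusted p = 0.0159), settings in which 1467 and 3759 of all probes were called, against 145 with all arrays. *Nprl3* and *Tbc1d7*, of complexes that restrain mTORC1, were 0.37 and 0.38 higher. *Larp1*, which binds the TOP motif, differed by -0.06 ± 0.10 (SE) and *Mtor* by 0.22 ± 0.14 (SE). The count of 7 higher genes was 3 without WT array 2 or WT array 3 and 4 without βUCP2Tg array 1 or 2. In these settings 6.23% to 7.13% of all probes were higher. The count was 10 without WT array 1, after quantile normalization or after cyclic loess, beside 16.8%, 12.5% and 12.9% of all probes. After normexp correction it was 13, beside 13.3%. The count of 4 lower genes was 2 without βUCP2Tg array 2 or 3 or WT array 2 or 3, where 9.87% to 11.3% of all probes were lower. It was 1 after quantile normalization, beside 12.9%.

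Among 32 genes of ribosomal protein stress and ribosome quality control, 7 were lower and 1 was higher at an unadjusted p under 0.05, with a median of -0.13, beside 11.6% of all genes lower and 12.9% higher. *Nufip1*, a factor of ribosome turnover and of snoRNP assembly, differed by -0.49 ± 0.11 (SE), *Nemf*, which marks stalled nascent chains, by -0.40 ± 0.11 (SE), and *Heatr3*, a partner in the nuclear import of Rpl5, by -0.39 ± 0.12 (SE). Their adjusted p-values in limma were 0.0840, 0.102 and 0.110. The count of 7 lower genes was 4 under median scaling, quantile normalization or cyclic loess, where 11.9%, 12.9% and 13.2% of all probes were lower. It was 4 without βUCP2Tg array 2 or WT array 2 (9.87% and 11.3% of all probes) and 10 without WT array 1 (18.4%). After normexp correction 8 were lower and 4 higher, beside 12.7% and 13.3% of all probes. *Mdm2* differed by -0.16 ± 0.11 (SE).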

How the data were processed

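Total RNA of 8 islet samples was labelled with Cy3 and hybridised to one-colour Agilent mouse arrays. The authors extracted spots with Agilent Feature Extraction (version 9.1 in the submitters' processing notes, a later version in the file headers). The deposited scanner files give intensity on a linear scale after background subtraction, with no scaling between arrays. The authors' GeneSpring table gives log2 values shifted per array, which were used to pick the probe of each gene and as an alternative. It also holds the authors' fold change, a ratio, and p-value for each probe, which were not used.

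Here control and outlier spots were left out, the 75th percentile of the array was subtracted from log2 intensity, and spots of a probe were averaged. Probes with at least 50% of spots well above background on 4 of 8 arrays were tested with limma 3.58.1 (R 4.3.3, with data.table in version 1.17.8) over all 35363 probes, with Benjamini-Hochberg adjustment, and the steps were tested on simulated data. Sequences and plots were handled with Python 3.11.15, pandas 2.3.3 and matplotlib 3.10.9. With 4 arrays per group, their number limits the precision.

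Members were named in the text when called, among the 6 highest or 6 lowest differences, for an extra role or a restricted copy, or for the widest spread between probes. From each related list up to 3 genes with the smallest p were named, and other members and list genes in the text were chosen after their values were seen. The members and lists were chosen with earlier results of these data known. The 7 related lists are those given in the report, and the 7 marker lists are β-cell, other islet hormones, acinar, ductal, endothelium, leukocyte and stellate cell. Alternatives covered the filter, scaling, background correction, source of values, outlier spots, test, probe of a gene, replicate block and left-out arrays. No coordinates of the header build (mm9) were used.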

Additional observations from a re-analysis of the deposited data

Results flagged for a closer look

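A sample stood far from the others of its group for 4 ribosomal protein genes, by Dixon's 95% limit for 4 samples. In WT islets *Rps20* was 7.29 on array 2 and between 6.95 and 7.00 on the other arrays, on the log2 scale, a gap of 0.857 of the group's range. *Rpl32* was 6.35 on WT array 3 and 6.64 to 6.67 on the others, a gap of 0.899. *Rps3* was 5.67 on WT array 1 and 5.87 to 5.90 on the others, a gap of 0.862. *Rps23* was low in both groups, at 5.73 on βUCP2Tg array 3 against 5.84 to 5.85 (a gap of 0.916) and at 5.73 on WT array 1 against 5.94 to 5.97 (a gap of 0.870). In all, 173 groups of values were examined and 5 passed the limit, where chance would flag about 1 in 20, or 8.65 groups.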

How the results depend on the processing

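In each setting tried, 0 ribosomal protein genes were called. The count at an unadjusted p under 0.05, 0 of 79 as reported, was 7 after quantile normalization, 1 after cyclic loess normalization (*Rps20*) and 14 after normexp background correction with quantile normalization, all higher in βUCP2Tg, where 12.5%, 12.9% and 13.3% of all probes tested were higher in these settings. It was 3 by the methods' t-test, 3 in limma with an intensity trend (*Rpl3*, *Rpl27* and *Rps27a* in both) and 3 when the probes of a gene were averaged (*Rpl41*, *Rps13* and *Rps9*), all lower, beside 13.7%, 15.7% and 14.3% lower over all features tested in these settings. It was 1 (*Rpl3*, lower) without βUCP2Tg array 4 and WT array 1 together, where 21.1% of all probes tested were lower and 18.4% higher. Leaving out each array in turn gave 0 to 1: *Rps24* lower without βUCP2Tg array 1, *Rpl3* lower without WT array 1, *Rps20* higher without WT array 2 and *Rpl13a* lower without WT array 3. With each array left out, 6.23% to 16.8% of all probes tested were higher and 9.87% to 18.4% lower. The median log2 difference of -0.05 was 0.0744 after quantile normalization and 0.0754 after normexp correction, beside medians of 0.07 and 0.05 over all genes tested in these settings, and ran from -0.08 to -0.01 with each array left out. After normexp correction the smallest adjusted p was 0.0373, at a fold change below 1.5. The cause of these shifts was not tested.

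With the replicate number as a block, 0 members were called and 0 had an unadjusted p under 0.05, while the probes called among all tested went from 145 to 14. Same-numbered arrays correlated at 0.44, -0.05, -0.01 and -0.24 in their deviations from the group means, so the numbers were not taken as pairs. Of the other values recomputed, 1074 kept their side of the limits and 6 passed them in the alternative, for *Ddit4*, *Pabpc1* and *Nufip1* with arrays left out. The depth of an array is not known, and 3 members were not well above background.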
